A study of Mus musculus with 36 samples.

Results

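The genes described here are the Wnt ligands (Wnt), the Frizzled receptors (Fzd) and the secreted Wnt inhibitors of the Sfrp and Dkk families in mouse pancreas. They were chosen by gene symbol from the protein-coding genes of the GENCODE annotation of mm10, which gave 37 genes of 21938. There were 19 Wnt, 10 Fzd, 4 Sfrp and 4 Dkk genes. All lie on autosomes. For each gene, the peaks of trimethylated lysine 27 of histone H3 (H3K27me3, here K27me3) and of trimethylated lysine 4 (H3K4me3, here K4me3) were looked for within 3 kb of any transcription start site (TSS), in each mouse separately.

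Wnt proteins are secreted, lipid-modified signals that bind Frizzled receptors on the surface of the receiving cell, either with Lrp co-receptors to stabilise β-catenin or without them to act on cell polarity and movement. Sfrp proteins resemble the ligand-binding domain of Frizzled and bind Wnt proteins outside the cell, and most Dkk proteins block the Lrp co-receptors. K27me3 is placed by the polycomb enzyme EZH2 and marks promoters of silent developmental genes, K4me3 marks promoters that are active or open, and promoters with both are often called bivalent or primed. In the pancreas, Wnt signals are known for their part in organ growth and in acinar regeneration.

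The comparison addressed here is how the loss of EZH2 methyltransferase activity in acinar cells bears on both marks. ChIP-Seq, which sequences the DNA bound to a modified histone, was performed on whole pancreas, and 6 mice are used here, with 3 mice per genotype and 1 peak list per mark and mouse. Mice were 2 to 4 months old, received tamoxifen by gavage and were examined 22 days later. The control mice (WT1 to WT3 below, labelled wildtype) were C57BL/6 or carried the Mist1creERT allele alone, and the labels do not say which. EZH2ΔSET mice (EZ1 to EZ3) carried Mist1creERT/+ and Ezh2 without its SET domain. Cre was driven from the Mist1 locus, which is active in acinar cells, so other pancreatic cells kept functional Ezh2. The lists hold positions only, so a value below is the presence of a peak or the share of bases it covers. The read depth is unknown. In whole tissue, a mark in fewer cells cannot be told apart from a weaker mark in all cells.

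The libraries were not alike. WT2 had 21420 K27me3 peaks and 17400 K4me3 peaks, the lowest numbers of the 6 mice. In WT2, 11.7% of autosomal K27me3 peaks overlapped a K4me3 peak, against 0.693% to 1.97% in the other 5 mice. WT2 also had K27me3 at 6 of 11 acinar genes such as Ptf1a, where the other mice had 0. K4me3 was at 4 of 6 immune genes in WT2 and at 1 or 2 in the other mice, and at 3 of 6 duct genes in WT2 and at all 6 in the others. The part of this in the results was not tested. All 6 mice had K4me3 at the 11 acinar genes, and none had K27me3 at 5 housekeeping genes. K27me3 peaks on chromosome X numbered 17 in EZ2 and 5637 to 7367 in the other 5 mice. This touches the shares of all genes given below, while the Wnt, Fzd, Sfrp and Dkk genes lie on autosomes. On autosomes, EZ2 had 28783 K27me3 peaks, against 15782 to 23954 in the other 5 mice. Whether this bears on the K27me3 calls at these genes in EZ2 was not tested. The paper used male and female mice, and the sample labels give no sex. Because of WT2, the main counts and the comparisons between genotypes are also given without that mouse.

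The bases upstream of 7 of these genes are shown because the 7 span the patterns described below. Of the 37 genes, 25 had a promoter in RefSeq on GRCm38.p6 (mm10), and all 25 sequences matched the genome. Each line gives the 250 bases before the RefSeq start, 5′ to 3′ along the gene, with the CG dinucleotide in capitals. CG is the same on both strands, and CG-rich stretches are the usual setting of both marks. The marks named in each line were called within 3 kb of any TSS of the gene. At Wnt6, K27me3 lay over the start printed here in WT2 alone. In EZ1 and EZ3 it was called through a second TSS inside the gene.
Dkk1, K27me3 in all 6 mice and K4me3 in none (chr19:30549497-30549746, minus strand): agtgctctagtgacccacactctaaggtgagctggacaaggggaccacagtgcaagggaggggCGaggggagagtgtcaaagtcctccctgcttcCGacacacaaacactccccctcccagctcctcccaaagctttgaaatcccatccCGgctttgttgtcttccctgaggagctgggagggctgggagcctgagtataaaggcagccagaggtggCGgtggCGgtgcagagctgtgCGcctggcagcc
Wnt8b, K27me3 in all 6 mice and K4me3 in 5, there at its downstream TSS and not at this start (chr19:44493222-44493471, plus strand): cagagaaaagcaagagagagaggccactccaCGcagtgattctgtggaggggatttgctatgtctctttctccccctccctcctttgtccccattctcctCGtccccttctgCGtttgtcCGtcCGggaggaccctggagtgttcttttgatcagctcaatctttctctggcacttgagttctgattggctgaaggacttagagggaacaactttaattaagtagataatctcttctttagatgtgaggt
Wnt16, K27me3 in 5 mice and K4me3 in none (chr6:22287977-22288226, plus strand): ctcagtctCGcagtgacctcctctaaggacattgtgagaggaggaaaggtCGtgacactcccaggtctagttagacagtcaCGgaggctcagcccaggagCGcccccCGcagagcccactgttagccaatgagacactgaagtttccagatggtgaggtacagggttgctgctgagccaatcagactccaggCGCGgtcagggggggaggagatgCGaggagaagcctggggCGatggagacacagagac
Wnt2, K27me3 in 4 mice and K4me3 in 3 (chr6:18030446-18030695, minus strand): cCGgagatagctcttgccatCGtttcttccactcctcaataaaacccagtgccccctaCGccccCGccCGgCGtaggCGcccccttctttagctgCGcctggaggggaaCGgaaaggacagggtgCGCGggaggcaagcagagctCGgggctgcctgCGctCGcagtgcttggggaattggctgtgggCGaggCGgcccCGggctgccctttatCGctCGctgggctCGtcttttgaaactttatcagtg
Wnt6, K27me3 in 3 mice and K4me3 in 5 (chr1:74771642-74771891, plus strand): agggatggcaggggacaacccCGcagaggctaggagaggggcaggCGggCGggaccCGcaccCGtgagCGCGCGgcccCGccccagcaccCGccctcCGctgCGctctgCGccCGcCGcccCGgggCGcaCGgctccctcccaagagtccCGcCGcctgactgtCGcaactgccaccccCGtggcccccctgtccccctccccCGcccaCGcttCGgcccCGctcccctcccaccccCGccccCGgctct
Fzd5, K4me3 in all 6 mice and K27me3 in none (chr1:64737751-64738000, minus strand): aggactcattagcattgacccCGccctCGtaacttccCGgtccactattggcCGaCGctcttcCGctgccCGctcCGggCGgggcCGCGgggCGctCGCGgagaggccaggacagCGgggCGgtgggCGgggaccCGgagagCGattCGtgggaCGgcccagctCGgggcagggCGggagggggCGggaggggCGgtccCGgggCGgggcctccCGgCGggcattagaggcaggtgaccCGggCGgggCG
Wnt9a, K4me3 in all 6 mice and K27me3 in WT2 alone (chr11:59306680-59306929, plus strand): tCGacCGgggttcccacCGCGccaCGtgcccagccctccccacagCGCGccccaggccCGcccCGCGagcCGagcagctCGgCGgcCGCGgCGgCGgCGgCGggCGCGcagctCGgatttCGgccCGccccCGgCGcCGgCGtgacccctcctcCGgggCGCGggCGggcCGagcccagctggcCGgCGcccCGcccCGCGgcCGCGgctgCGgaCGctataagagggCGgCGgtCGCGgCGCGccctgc
The numbers of CG in these stretches were 6 for Dkk1, 5 for Wnt8b, 9 for Wnt16, 20 for Wnt2, 28 for Wnt6, 32 for Fzd5 and 48 for Wnt9a. The median over the 32851 RefSeq promoters of the same length was 6, and 92.1% of them held at least 1 CG.

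The number of genes with K27me3, of the 37, was 2, 27 and 5 in WT1, WT2 and WT3, and 9, 9 and 11 in EZ1 to EZ3. All 3 EZ mice were thus above WT1 and WT3 and below WT2. As a share, the EZ mice lay between 24.3% and 29.7% of the 37 genes, where autosomal protein-coding genes lay between 11.6% and 13.0%. In WT1 the share was 5.41% against 9.03% of autosomal genes, in WT3 13.5% against 11%, and in WT2 73.0% against 22.9%. The mean number per mouse differed between EZH2ΔSET and control by -1.67, less than the spread between the control mice. Without WT2 it was 6.17 higher in EZH2ΔSET. K4me3 was present at 24, 16 and 23 genes in WT1 to WT3 and at 23, 20 and 22 in EZ1 to EZ3, so the genotypes overlapped.

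**Figure D1:**
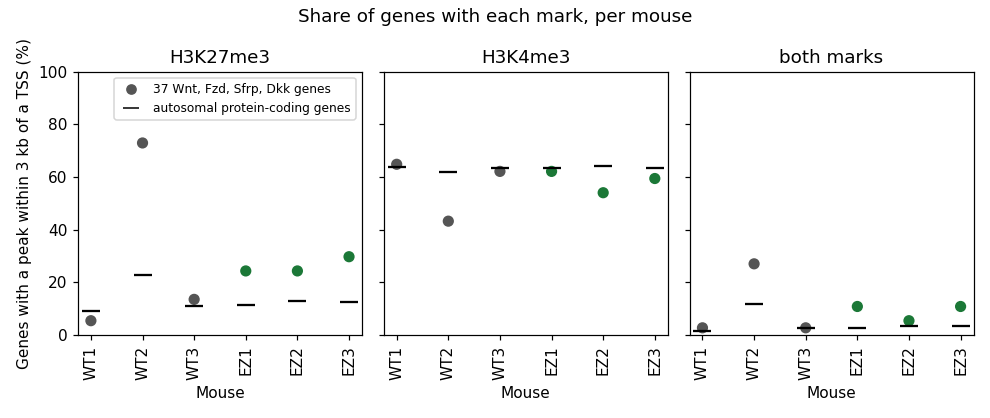
Share of the 37 Wnt, Fzd, Sfrp and Dkk genes (filled circles, grey for WT and green for EZ) and of autosomal protein-coding genes (horizontal dashes) with a K27me3 peak, a K4me3 peak or both within 3 kb of a TSS, in percent, in each of 6 mice. WT2 stands apart with K27me3 at 73.0% of the 37 genes, and the EZ mice lie between 24.3% and 29.7%.

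The 4 families differed in which mark they carried. All Fzd genes except Fzd10 had K4me3 in all 6 mice, and no Dkk gene had it in any mouse. K4me3 was present in all 6 mice at 16 of the 37 genes (43.2%, against 57.4% of all protein-coding genes), namely Fzd1 to Fzd9, Sfrp2, Wnt2b, Wnt5a, Wnt5b, Wnt9a, Wnt9b and Wnt11. It was present in no mouse at 12 (32.4%, against 34.1%), namely the 4 Dkk genes, Fzd10, Sfrp4, Wnt3, Wnt3a, Wnt7a, Wnt8a, Wnt10a and Wnt16. Wnt5b had K4me3 near its gene start in WT2 and EZ2 alone, and was called in the other mice through TSSs inside the gene. With gene starts alone, K4me3 was in all mice of the genotype at 15 genes in control and 18 in EZH2ΔSET. K27me3 was present in all 6 mice at Dkk1 and Wnt8b (5.41%, against 3.61% of all genes). It was present in no mouse at 9 genes (24.3%, against 66.7% of all genes), namely Fzd1, Fzd4, Fzd5, Fzd7, Fzd8, Fzd9, Sfrp1, Dkk4 and Wnt8a. A further 14 genes (37.8%, against 11.6% of all genes) had K27me3 in WT2 alone: Wnt1, Wnt2b, Wnt4, Wnt5b, Wnt7b, Wnt9a, Wnt9b, Wnt10b, Wnt11, Fzd2, Fzd3, Fzd6, Sfrp5 and Dkk3. Over the other 5 mice, without WT2, K4me3 was present in all at 20 of the 37 genes (54.1%, against 60.2% of all genes), with Sfrp1, Wnt1, Wnt6 and Wnt8b added, and K27me3 in none at 23 (62.2%, against 78.3%).

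**Figure D2:**
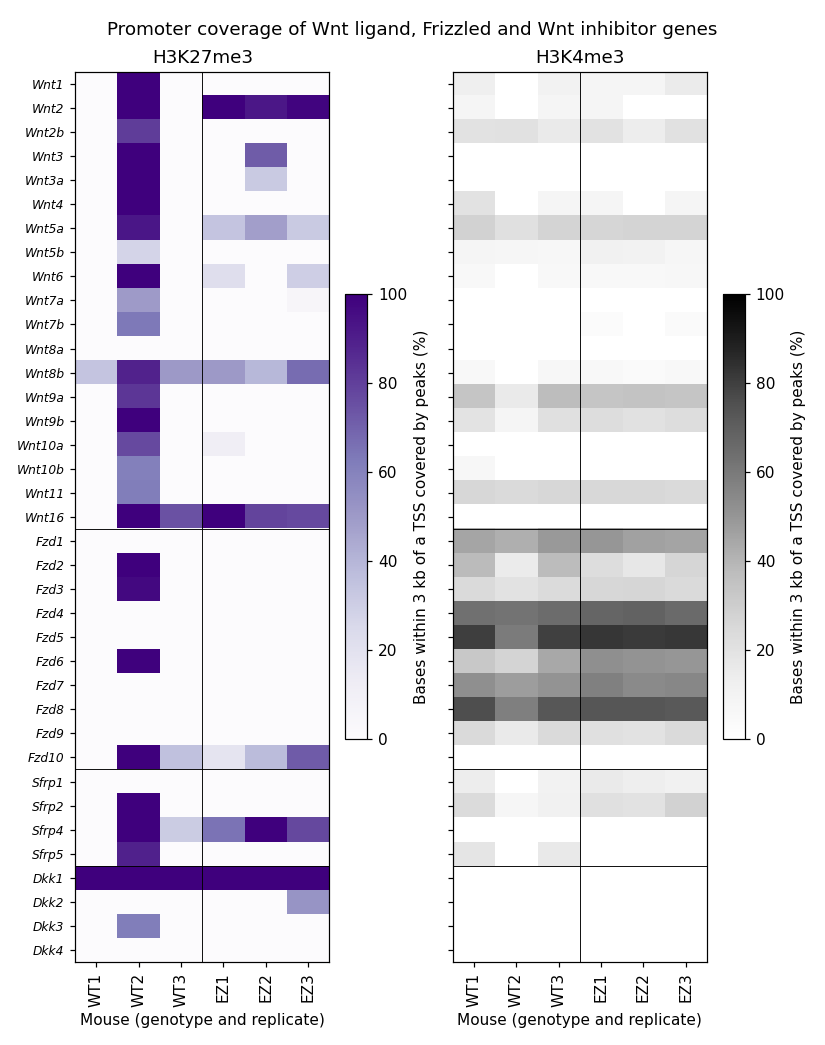
Share of bases within 3 kb of a TSS that lay in K27me3 peaks (left, purple) or K4me3 peaks (right, grey), in percent, for the 37 genes (rows) in the 6 mice (columns). Dkk1, Wnt8b, Wnt16, Sfrp4 and Fzd10 form rows for K27me3, Wnt2 and Wnt5a are coloured in WT2 and the EZ mice, the Fzd genes other than Fzd10 form the block of K4me3, and WT2 has the most genes with K27me3.

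Among the ligands, K27me3 was found in all 3 mice of a genotype at Wnt8b in controls, and at Wnt2, Wnt5a, Wnt8b and Wnt16 in EZH2ΔSET tissue. With Dkk1 in both genotypes and Sfrp4 and Fzd10 in EZH2ΔSET, the counts over the 37 genes were 2 in control (5.41%, against 5.78% of all protein-coding genes) and 7 in EZH2ΔSET (18.9%, against 7.39%). The control count was 2 with or without WT2, since WT1 had K27me3 at no other gene of the set. Without WT1 it was 5 (13.5%, against 9.25% of all genes) beside 7 in EZH2ΔSET. With presence in at least 2 of 3 mice it was 5 beside 8, a setting for which the share of all genes was not computed. WT1 lacked the peak at 5 of the 7 genes, all except Dkk1 and Wnt8b. Over all protein-coding genes, 1621 had K27me3 in all 3 EZ mice, and WT1 lacked it at 511 of these. As shares of whole sets, the pattern was seen at 13.5% of the 37 genes and 2.33% of all protein-coding genes. Acinar cells are the cells in which these mice lost the SET domain, and which cells carried the peaks was not measured.

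Wnt2 encodes a ligand with roles in lung and placenta. Its K27me3 coverage, the share of bases within 3 kb of the TSS, was 0%, 100% and 0% in WT1 to WT3 and 100%, 92.4% and 98.1% in EZ1 to EZ3. The peak was called in 4 mice and not in WT1 or WT3, where the nearest K27me3 peak was 939 kb and 756 kb from the gene start. It was 6.615 to 8.91 kb wide and spanned the start in each of the 4 mice, for example from 18026798 to 18034672 on chromosome 6 in EZ1. K4me3 was called at Wnt2 in WT1, WT3 and EZ1, each time as a peak of 501 bp upstream of the start, over 8.3% of the bases. EZ1 was the only mouse with both marks there, and the K4me3 peak lay inside the K27me3 peak.

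Wnt5a encodes a ligand best known for signalling without β-catenin. Its K27me3 coverage was 0%, 92.8% and 0% in WT1 to WT3 and 34.3%, 48.3% and 32% in EZ1 to EZ3. The mice with and without a peak were the same as at Wnt2. This pattern, a K27me3 peak in WT2 and all 3 EZ mice and none in WT1 or WT3, was found at 96 of all protein-coding genes (0.438%). K4me3 was present at Wnt5a in all 6 mice, over 21.1% to 27.8% of the bases, and ran from about the gene start to 2.73 to 3.19 kb downstream. In EZ1, EZ2 and EZ3 the K27me3 peak began further downstream, at 5.35, 3.56 and 5.64 kb from the gene start, and covered the TSSs annotated between 5.87 and 6.70 kb. In these mice the marks lay side by side and shared no base within the window. In WT2 the K27me3 peak reached from 2.70 kb before to 9.09 kb after the gene start, and both marks shared 21.1% of the bases.

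Wnt16 encodes a ligand studied in bone and in fibroblasts. Its K27me3 coverage was 0%, 100% and 74.7% in WT1 to WT3 and 100%, 78.8% and 77.1% in EZ1 to EZ3. The peak was missing in WT1 alone and was 10.1 to 15.1 kb wide in the other 5 mice. Wnt8b, a ligand of the developing forebrain, had K27me3 in every mouse, over 34.1%, 88.7% and 50% of the bases in WT1 to WT3 and 50%, 39.3% and 66.9% in EZ1 to EZ3, so the genotypes overlapped. Wnt8b also had K4me3 in every mouse but WT2, over 4.2% to 6.4% of the bases, in a peak that began 17.9 to 18.2 kb downstream of the gene start and shared no base with K27me3 in the window.

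**Figure D3:**
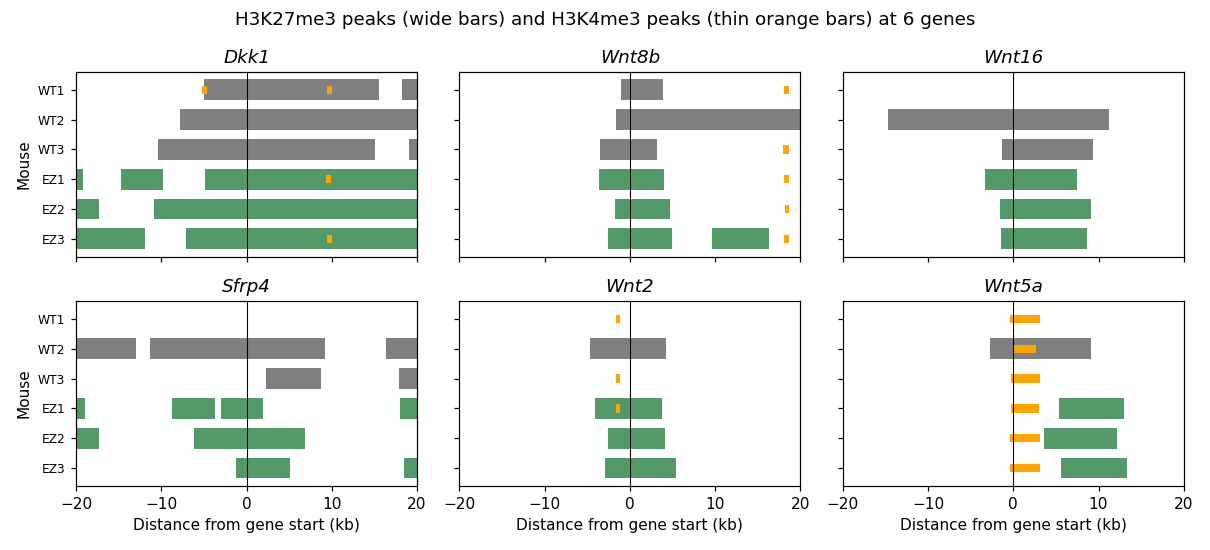
K27me3 peaks (wide bars, grey for WT and green for EZ) and K4me3 peaks (thin orange bars) from 20 kb before to 20 kb after the start of 6 genes, in each of 6 mice (distance in kb along the gene, the vertical line marks the start). The K27me3 peak spans the start at Dkk1 and Wnt8b in every mouse and at Wnt2 in 4 mice, and at Wnt5a it lies beside the K4me3 peak in the 3 EZ mice.

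Wnt6 and Wnt10a are neighbouring ligand genes on chromosome 1 with 6.19 kb between them, Wnt6 at 74771892 to 74785322 and Wnt10a at 74791516 to 74804179, both on the plus strand. The K27me3 coverage of Wnt10a was 0%, 77.2% and 0% in WT1 to WT3 and 11.2%, 0% and 0% in EZ1 to EZ3. That of Wnt6 was 0%, 100% and 0% in WT1 to WT3 and 22.2%, 0% and 29.7% in EZ1 to EZ3. EZ1 and EZ3 each had a single K27me3 peak between the gene starts, of 6616 and 6273 bp. That of EZ1 came within 3 kb of TSSs of both genes, and that of EZ3 ended 3.36 kb before Wnt10a. Neither reached the start of Wnt6, and both were assigned to it through a second TSS at 74782439, inside the gene. In WT2 a peak of 17361 bp covered the same stretch and reached 3.06 kb past the start of Wnt10a, while the start of Wnt6 lay under a separate peak of 19013 bp. The nearest peaks of WT3 and EZ2 lay 45.1 and 42.8 kb downstream of the start of Wnt10a. K4me3 was found at Wnt6 in every mouse but WT2, over 5.2% to 6.9% of the bases, and at Wnt10a in no mouse.

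**Figure D4:**
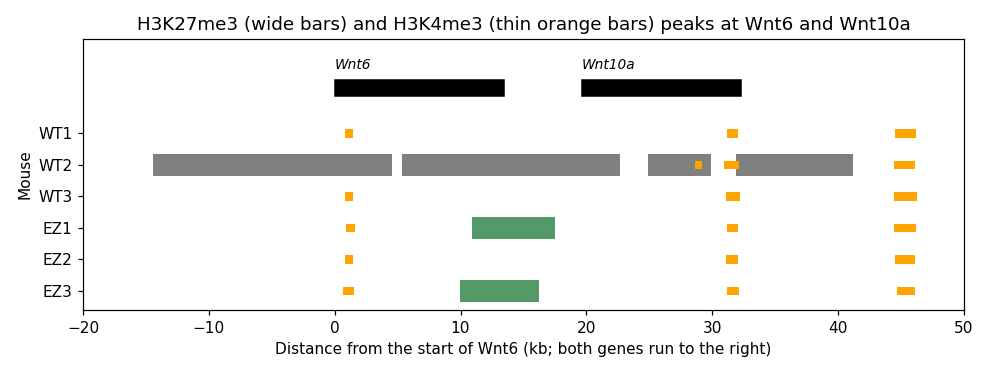
K27me3 peaks (wide bars, grey for WT and green for EZ) and K4me3 peaks (thin orange bars) around Wnt6 and Wnt10a (black bars) in each of 6 mice, by distance in kb from the start of Wnt6. A K27me3 peak lies between the gene starts in EZ1 (6616 bp) and EZ3 (6273 bp), a wider one (17361 bp) in WT2 runs past the start of Wnt10a, and the other 3 mice have none there.

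The other ligands with K27me3 had it in a minority of mice. Wnt3a, a classical activator of β-catenin, had it over 100% of the bases in WT2 and 31.8% in EZ2, and Wnt3 over 100% in WT2 and 71.5% in EZ2. Wnt7a had it over 49.9% in WT2 and 4.8% in EZ3. Wnt1 and Wnt4 had it over 100% in WT2 alone, where K4me3 was missing. K4me3 at Wnt1 covered 13.2% and 10.5% in WT1 and WT3 and 8.3%, 8.3% and 15.1% in EZ1 to EZ3. In WT2, a single K27me3 peak came within 3 kb of TSSs of both genes in 3 neighbouring pairs: Wnt6 with Wnt10a, Wnt3a with Wnt9a on chromosome 11 (21335 bp), and Wnt1 with Wnt10b on chromosome 15 (33187 bp). The peak covered both gene starts at Wnt1 and Wnt10b. At Wnt3a it ended before the start of Wnt9a, which lay under a peak of its own.

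Of the receptors, Fzd10 was the exception. Its K27me3 coverage was 0%, 100% and 35.9% in WT1 to WT3 and 18.3%, 37.7% and 71.9% in EZ1 to EZ3, and it had K4me3 in no mouse. The EZ mice lay within the range of the controls. The other 9 receptor genes had K4me3 in every mouse. Coverage by K4me3 was highest at Fzd5, Fzd4 and Fzd8, whose lowest values over 6 mice were 59.5%, 62.3% and 58.1%, and lowest at Fzd2, Fzd3 and Fzd9, with lowest values of 15.1%, 20.2% and 16%. The window of Fzd3, with 2 TSSs, was 12002 bp long, against 6001 bp at Fzd1, Fzd2 and Fzd9, and its K4me3 peak (2.43 to 2.89 kb) was about as wide as that of Fzd1 (2.51 to 2.99 kb), so its place in this order follows the longer window. WT2 gave the lowest value at each of the 6 genes. K27me3 at the 9 receptor genes was seen in WT2 (Fzd2, Fzd3 and Fzd6) and in no other mouse. The nearest K27me3 peak to the start of Fzd7, in the mouse where it was closest, was 218 kb away, and for Fzd5 it was 104 kb away.

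Of the secreted inhibitors, Dkk1, a blocker of Lrp5 and Lrp6, had K27me3 over 100% of the bases in every mouse and K4me3 in none. The peak across its start was 20.5, 35.9 and 25.4 kb wide in WT1 to WT3 and 37.3, 63.6 and 57.7 kb in EZ1 to EZ3. Peaks that touched or overlapped were joined, so these widths depend on where short gaps split a peak. In EZ2 it ran from 30496882 to 30560485 on chromosome 19 and in WT1 from 30534174 to 30554661. Dkk2 had K27me3 in EZ3 alone, Dkk3 in WT2 alone and Dkk4 in no mouse, and none of them had K4me3. Sfrp4 had K27me3 coverage of 0%, 100% and 31.1% in WT1 to WT3 and 64.9%, 100% and 77.7% in EZ1 to EZ3, and K4me3 in no mouse. Sfrp1 had K4me3 in every mouse but WT2 (10.4% to 15.6% of the bases) and no K27me3. Sfrp2 had K4me3 in every mouse (7.7% to 27.9%), with K27me3 over 100% of the bases in WT2 and 0.2% in EZ3. Sfrp5 had K4me3 over 18% in WT1 and 16.2% in WT3 and in no other mouse.

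A call between the genotypes needed a peak in 3 of 3 mice of one and 0 of 3 of the other. None of the 37 genes was called for K27me3, where a gain in EZH2ΔSET was found at 0.196% of all protein-coding genes and a loss at 0.00912%. None was called for K4me3, where the gains were 0.0729% and the losses 0.0365%. Without WT2, K27me3 at Wnt2 and Wnt5a was in all 3 EZ mice and in neither of the other controls, a gain found at 0.634% of all genes. Without WT2, Sfrp5 had K4me3 in both other controls and in no EZ mouse, a loss found at 0.182% of all genes. Without EZ2, Wnt7b had K4me3 in both other EZ mice and in no control, a gain whose share over all genes was not computed.

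Both marks were present at 1, 10 and 1 of the 37 genes in WT1 to WT3 and at 4, 2 and 4 in EZ1 to EZ3. Over all protein-coding genes the shares were 2.15%, 12.4% and 3.77% in WT1 to WT3 and 3.89%, 3.11% and 4.90% in EZ1 to EZ3, and over the 37 genes 2.70%, 27% and 2.70% and 10.8%, 5.41% and 10.8%. Genes with at least 1 base in both marks were fewer outside WT2, at 0, 10 and 0 in WT1 to WT3 and 1, 0 and 0 in EZ1 to EZ3, where 0.702%, 8.56% and 1.84% and then 1.96%, 1.33% and 2.67% of all genes had them. The high control counts came from WT2. No gene had both marks in all 3 controls (1.22% of all protein-coding genes did). Wnt5a and Wnt8b had both in all 3 EZ mice, where 1.64% of all genes had both. Both calls rest on TSSs inside the genes, since the count of 2 became 0 with gene starts alone, and it was 1 with a window of 1 kb. Without WT2, the control count was 1, Wnt8b (2.70%, against 1.75% of all genes).

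The coverage of each gene was then compared between the 3 EZ and the 3 control mice. An exact two-sided permutation test has 20 arrangements here and cannot go below p = 0.1, so no gene could pass 0.05, and the genes whose groups did not overlap are given as a description. For K27me3, none of the 28 genes with coverage was higher or lower in every EZ mouse than in every control, where 2.23% of all genes were higher and 0.328% lower. Of the 28 genes, 14 had coverage in WT2 alone, as did 2551 of the 7312 protein-coding genes with coverage. Without WT2, 14 genes had coverage, and 9 of them (64.3%, against 27.6% of all genes with coverage) had none in either other control, so that they could only be higher in EZ mice. Every EZ mouse lay above both other controls at 4 of the 14, where 9.66% of all genes were higher and 3.07% lower, and Wnt2 and Wnt5a were among the 9, so nothing is read from the count. The 4 were Wnt2 (96.8 points higher), Sfrp4 (65.3), Wnt16 (48.0) and Wnt5a (38.2), each with an exact permutation p of 0.1 and an adjusted p of 1.

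For K4me3, 5 of 25 genes with coverage were higher in every EZ mouse than in every control and none was lower, where 9.15% of all genes were higher and 2.12% lower. With 1 mouse left out in turn, the count of higher genes ranged from 5 to 9 (9 without WT1). Of these settings, the share of all genes was computed only without WT2. With a window of 1 kb in place of 3 kb the count was 0, although Fzd6 was still 11.1 points and Wnt6 2.42 points higher on average. Fzd4, Fzd5 and Fzd7 were covered over 100% of that window in all 6 mice and could not differ in it. The 5 were Fzd4, Fzd5, Fzd6, Fzd7 and Wnt6, each with an exact permutation p of 0.1, the smallest it can give, and an adjusted p of 0.887. Fzd6 encodes a receptor of the cell polarity pathway. Its K4me3 coverage was 32.6%, 27% and 44% in WT1 to WT3 and 52.3%, 50.8% and 49.9% in EZ1 to EZ3. The means were 34.5% ± 8.64 (SD, n = 3) and 51.0% ± 1.17 (n = 3), a difference of 16.5 points, the largest of the 5.

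Fzd7, a receptor of epithelial stem cells, had K4me3 coverage of 52.1%, 47.4% and 51.1% in WT1 to WT3 and 57.6%, 54.1% and 55.3% in EZ1 to EZ3, with means of 50.2% ± 2.48 (n = 3) and 55.7% ± 1.74 (n = 3). Fzd4, which also binds Norrin, had 63.6%, 62.3% and 65.1% in WT1 to WT3 and 67.3%, 68.6% and 66% in EZ1 to EZ3, a difference of 3.63 points. The groups lay apart by less than 1 point between WT3 and EZ3. Fzd5 had 80.3%, 59.5% and 79.8% in WT1 to WT3 and 82.5%, 81.4% and 82.4% in EZ1 to EZ3. Its difference of 8.88 points fell to 2.05 points without WT2. Wnt6 had 5.2%, 0% and 5.5% in WT1 to WT3 and 5.8%, 5.7% and 6.9% in EZ1 to EZ3, and its difference of 2.60 points was 0.819 without WT2. Fzd6 was 12.8 points higher without WT2.

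**Figure D5:**
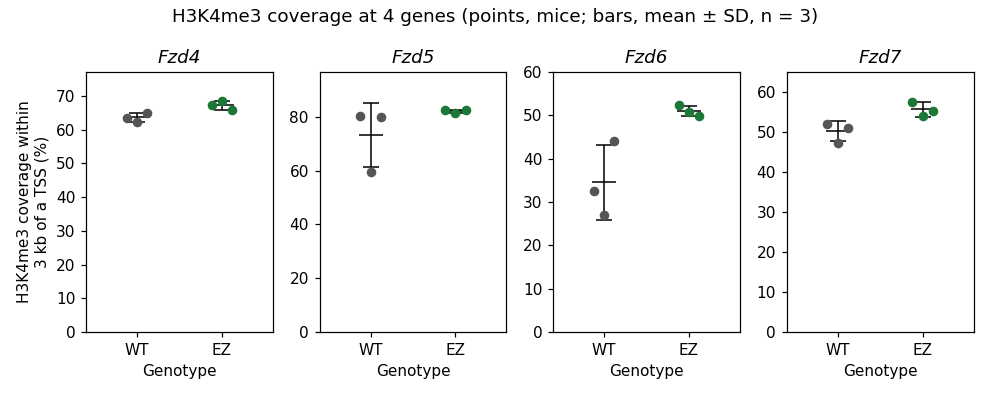
K4me3 coverage within 3 kb of a TSS, in percent, at Fzd4, Fzd5, Fzd6 and Fzd7 in WT (grey) and EZ (green) mice, with points for mice and bars for the mean ± SD (n = 3). The groups do not overlap at any of the 4 genes, the gap is widest at Fzd6 (34.5% against 51.0%), and WT2 gives the low control value at Fzd5 (59.5%).

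Without WT2, the same 5 genes were higher for K4me3 (12.6% of all genes were) and 4 of the 25 were lower (10.1% of all genes were). The 4 were Sfrp5 (-17.1 points), Fzd2 (-15.7), Fzd9 (-2.92) and Wnt11 (-0.723). Fzd2 coverage was 38% and 37.5% in WT1 and WT3 and 22.5%, 17.4% and 26.2% in EZ1 to EZ3, while WT2 had the lowest value, 15.1%. The median difference over the 25 genes was 2.42 points, against 0.673 over all genes with K4me3, and without WT2 it was 0.167 against 0.138.

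The CG content of these genes is given as a description, and the ranges of the groups overlapped. The 1001 bases around the gene start held a median of 71 CG over the 37 genes and 41 over all protein-coding genes. A mark could be called at another TSS, away from the bases counted. Examples are K4me3 at Wnt5b outside WT2 and EZ2, and K27me3 at Wnt5a in the EZ mice. The 16 genes with K4me3 in all 6 mice had a median of 91.5 (50 to 131) and the 12 with K4me3 in no mouse 36.5 (17 to 95), against 61 and 9 over all genes with these patterns. The 7 genes with K27me3 in all 3 EZ mice had a median of 42 (21 to 95), from 21 at Wnt8b, 27 at Wnt16 and 31 at Dkk1 to 95 at Fzd10. The 9 genes with K27me3 in no mouse had a median of 95, and the 14 with K27me3 in WT2 alone 74.5. Over all genes with these 3 patterns the medians were 21, 47 and 52. Fzd10 and Wnt7a were CG-rich (95 each) without K4me3 in any mouse. Over all protein-coding genes, those with K27me3 had a median of 9 CG in WT1, 42 in WT2 and 18 in WT3, and of 19, 14 and 23 in EZ1 to EZ3, so the libraries differed in the CG content of what they marked. The part of this in the differences between mice was not tested.

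Of 51 other genes of the Wnt pathway (co-receptors, R-spondins, cytoplasmic components, targets and further inhibitors), 41 (80.4%) had K4me3 in all 6 mice, against 57.4% of all protein-coding genes, and 28 (54.9%) had K27me3 in none, against 66.7%. Without WT2, 42 (82.4%) had K4me3 in all 5 mice, against 60.2% of all genes, and 43 (84.3%) had K27me3 in none, against 78.3% of all genes, so the direction of the last comparison turned with WT2. K27me3 was present at 2, 23 and 5 of the 51 in WT1 to WT3 and at 6, 7 and 6 in EZ1 to EZ3. The shares of all genes were 10.6%, 24.6% and 13.4% and then 14.1%, 12.3% and 15.6%. As a share, the 51 genes lay below all genes in WT1, WT3, EZ1 and EZ3 and above them in WT2 and EZ2. Rspo3, an R-spondin that strengthens Wnt signals, was the only one with K27me3 in all 6 mice, and it also had K4me3 in all 6. The genes named here were picked for K27me3 in all 3 EZ mice. Their peaks could therefore be missing only in controls, and nothing is read from where they were missing. Sp5, a target gene of β-catenin, Wif1, a secreted inhibitor, and Rspo2 had K27me3 in 5 mice and lacked it in WT1. Rspo1 had it in WT2 and all 3 EZ mice and not in WT1 or WT3. Genes of the list with K27me3 in fewer EZ mice are not named. Sp5 and Wif1 had K4me3 in all 6 mice, and Rspo1 and Rspo2 in none.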

How the data were processed

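ChIP-Seq for H3K27me3 and H3K4me3 was performed by the authors on whole pancreas, with an input library for each mouse. The 6 control and EZH2ΔSET mice are used; the remaining mice of the series are left out of this account. The labels name FastQC, bowtie2 and HOMER for the processing and mm10 as the build, and peaks were called in each mouse by the authors against its input. Each of the 12 deposited lists used holds peak positions with a score column in which every value is 1, which was not used. Without read counts the depth of the libraries is unknown, so no correction for depth and no interval for counting error can be given. The 6 input samples and the RNA-Seq data were not analysed here.

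TSSs were those of all transcripts of protein-coding genes in GENCODE vM21. A gene was called when a peak overlapped the 3 kb on either side of any TSS by at least 1 bp, and its coverage is the share of these bases under peaks, with overlapping or touching peaks joined for widths. Coverage was compared by an exact two-sided permutation test per gene over the 6 mice (20 arrangements), in place of one planned over more mice, with Benjamini-Hochberg adjustment over all genes with coverage. The code was tested on simulated data. Nothing says that the mice of a genotype were housed or processed apart. The named genes are all genes whose symbol is Wnt, Fzd, Sfrp or Dkk followed by a number, and, of a fixed list of 51 further Wnt pathway genes, those with K27me3 in all 3 EZ mice, chosen after their values were seen. The genes and lists were chosen with earlier results of these data known.

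The alternatives were a window of 1 kb, gene starts alone, at least 500 bp covered, the same number of peaks in each library, widest first, presence in at least 2 of 3 mice, the replicate number as a block, each mouse left out in turn and, chosen after seeing the data, autosomal genes as the background and presence over 5 mice without WT1 or WT2. Same-numbered mice did not deviate together throughout (correlations of -0.0192 to 0.0798 for K27me3 and 0.0743 to 0.249 for K4me3), so the numbers were not taken as pairs. Analyses used scipy 1.17.1, pandas 2.3.3, numpy 2.4.6, pysam 0.24.0 and matplotlib 3.10.9 in Python 3.11.15.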

Additional observations from a re-analysis of the deposited data

How the results depend on the processing

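Of the values under planned settings other than leaving out a mouse, 14 moved by more than 1.5 times (counts) or by at least 1 SD between mice (differences), and 73 stayed within these limits. Genes with K27me3 in all mice of a genotype numbered 2 to 5 in control (5 without WT1) and 7 to 8 in EZ when 1 mouse was left out, and in control 1 with equal numbers of widest peaks and 5 with at least 2 of 3 mice. For K4me3 the ranges were 16 to 23 and 20 to 22, with 13 in EZ for equal numbers of widest peaks. Genes with both marks ranged over 0 to 1 in control (1 without WT2, and 1 with 2 of 3 mice) and 2 to 3 in EZ, where they were 1 with a 1 kb window, 0 with gene starts alone and 1 with equal numbers of widest peaks. The mean number of genes with K27me3 per mouse, EZ minus WT, ranged from -6.33 to 6.17 (6.17 without WT2), and was -3.67 with a 1 kb window and -3.33 with gene starts alone, against -1.67. Calls between genotypes ranged over 0 to 2 for K27me3 (2 without WT2) and 0 to 1 for K4me3 (Sfrp5 without WT2, Wnt7b without EZ2). Genes higher in every EZ mouse ranged over 0 to 4 for K27me3 coverage (4 without WT2) and 5 to 9 for K4me3 coverage (9 without WT1), and genes lower over 0 to 0 and 0 to 4 (4 without WT2). With a 1 kb window the K4me3 count of 5 became 0, with a difference of 0 at Fzd4, Fzd5 and Fzd7, which were fully covered in all 6 mice, of 11.1 points at Fzd6 and of 2.42 at Wnt6. The K4me3 difference at Fzd6 ranged from 12.8 to 21.2 points without 1 mouse, at Fzd7 from 4.07 to 6.43, at Fzd4 from 2.96 to 4.35, at Fzd5 from 2.05 to 12.4 and at Wnt6 from 0.819 to 3.55. That at Wnt6 was 5.20 with gene starts alone and 0 with equal numbers of widest peaks. The cause of these changes was not tested.

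With the replicate number as a block, K4me3 coverage was higher in the EZ mouse of all 3 same-numbered pairs at 9 of 25 genes, where 20.2% of all genes with coverage were, and K27me3 coverage at 0 of 28, where 3.88% were. This asks less than the separation of all 3 EZ from all 3 control mice, which 5 of 25 genes and 9.15% of all genes showed for K4me3, so the move from 5 to 9, counted among the 14 above, is a change of criterion. The smallest p with the block is 0.25. A list of positions without heights cannot show a change in the strength of a mark inside a peak, and a peak not called is not an absent mark.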
